A study of Mus musculus with 64 samples.

Results

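A stretch of mouse chromosome 13 from 62900000 to 63700000 (GRCm38, mm10) holds Aopep, Fancc and Ptch1 one after the other, and it was chosen by the insertions measured there in tumours and tails, chiefly those of Aopep. Its members were all transposon insertions between these coordinates, 144 of 299627 insertions kept over the genome. PB tumours carried 71 of them, PB tails 55, SB tumours 10 and SB tails 8. Aopep held 83, Fancc 27 and Ptch1 17, with 4 counted in both Aopep and Fancc, whose annotated ends overlap. Since the region was picked with these numbers in view, comparisons of its counts between tumours and tails are given as a description, with no test.

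The data came from transposon mutagenesis screens in mice, in which a transposase moves copies of a transposon array out of a donor locus into the rest of the genome. PiggyBac (PB) inserts at TTAA and Sleeping Beauty (SB) at TA. Both transposases were knocked into Rosa26 and were active in the whole animal, so tumours and tails alike carried insertions. The 30 PB tumours (genotype label IMPB) and 11 SB tumours (IMSB) were diffuse large B cell lymphomas sampled mostly as spleens, lymph nodes and mesenteric masses, and 12 PB and 11 SB tails served as control tissue. The SB animals came from crosses of Rosa26 SB/+; Blm m3/m3 mice with ITP1-C or ITP2-M transposon mice, themselves Blm m3/m3, and included double and triple transgenic animals. The PB mice carried ITP transposons and the PB transposase, and the methods refer to an earlier description for the rest of their genotype, including Blm. All mice had a mixed C57BL/6 × 129Sv × FVB background, and ages were not given in the sources used here. The mouse numbers in the titles differed for all 64 samples, so that no tumour had a tail of the same mouse. DNA insertions carry no expression markers, and the tissue labels could not be checked against any.

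Ptch1 encodes the receptor of hedgehog ligands. Without ligand it holds the signal transducer Smo in check, and with ligand this hold is released and the Gli transcription factors act, which makes Ptch1 a tumour suppressor in skin and cerebellum and hedgehog signalling a regulator of hair follicles. Fancc encodes a subunit of the Fanconi anaemia core complex, which marks Fancd2 and Fanci with ubiquitin at DNA crosslinks. Aopep encodes a zinc aminopeptidase of the M1 family, and the last exon of its RefSeq Select transcript carries the microRNA genes Mir23b, Mir27b and Mir24-1.

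Aopep lies on the plus strand from 62964893 to 63326096 (361 kb, 1796 TTAA sites). Its RefSeq Select transcript has 16 exons and encodes 823 residues. Fancc lies on the minus strand from 63301334 to 63497292 (196 kb, 1090 TTAA sites), a span to which predicted transcripts contribute, since its curated transcripts lie between 63304709 and 63431745. It has 15 exons and 558 residues. Ptch1 lies on the minus strand from 63508328 to 63573460 (65.1 kb, 328 TTAA sites), with 24 exons and 1434 residues, and its Select transcript starts at 63565735. The TTAA sites were spread at 4.97 per kb in Aopep, 5.56 in Fancc and 5.04 in Ptch1, so the 3 genes offered PB similar numbers of targets per length. The lowest insertion inside the region lay 7.19 kb above its lower border (SB tail 2) and the next one outside 8.87 kb below it (SB tumour 2). The highest lay 2.99 kb below the upper border and the next one outside 1.64 kb above it, both in PB tail 10.

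The sites that carried repeated or closely spaced insertions are shown first, each as the plus strand of GRCm38 with the target motif in capitals and 10 bases on each side. Exactly 3 TTAA sites of the region were hit in 2 samples each, all in Aopep and all in PB tails, and no site was hit in 3 or more samples.
Aopep intron 5, PB tails 1 and 9, chr13:63073021-63073044: ggttgtttctTTAAaaacccaaac
Aopep intron 5, PB tails 5 and 11, chr13:63120675-63120698: tacttttattTTAAaaagaacagg
Aopep exon 6, PB tails 1 and 7, chr13:63156567-63156590: tcagagcaccTTAAcaggcacgag
The first site carried 57 reads in tail 1 and 25 in tail 9, both on the minus strand. The second carried 49 reads on the minus strand in tail 5 and 53 on the plus strand in tail 11, and the third 69 on the plus strand in tail 1 and 22 on the minus strand in tail 7. In 2 of the 3 pairs the orientation thus differed between the mice. Over PB tumours and tails together, sites hit more than once were 3 of 123 positions in the region (2.44%) and 8386 of 195143 over the genome (4.30%). Of the SB positions in the region they were 0 of 18. The share over the genome was not computed for tails alone, so these numbers cannot tell whether tails reused sites more often here.

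The densest group of insertions of the region lay in the same intron of Aopep, with 4 insertions of 4 PB samples within 391 bp. These 4 are shown because 2 came from tumours and 2 from tails. How often such close groups occur over the genome was not computed, neither for this group nor for that near Fancc.
PB tumour 15, plus strand, chr13:63112266-63112289: tgtgtctttgTTAAgatcatcaca
PB tail 4, minus strand, chr13:63112373-63112396: gcactgtgctTTAAacagactgct
PB tail 1, plus strand, chr13:63112639-63112662: tgttgtcactTTAAgaaactgttc
PB tumour 18, plus strand, chr13:63112657-63112680: ctgttcctgtTTAAtccgggacag
The reads of these insertions were 3, 6, 23 and 14 in this order.

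Within 500 bp, 3 or more samples were found together at only 1 further place, just upstream of the Select start of Fancc at 63431745. All 3 insertions were on the plus strand, which is opposite to Fancc.
PB tumour 21, 505 bp upstream, chr13:63432240-63432263: cagccctttcTTAAagattttcaa
PB tumour 23, 825 bp upstream, chr13:63432560-63432583: acttagtgccTTAAaaataacatg
SB tail 9, 877 bp upstream, chr13:63432612-63432633: agctcttattTAaatactctgt
They carried 4, 3 and 63 reads. Of these, the SB tail insertion ranked in the 82.8th percentile of its sample, and the tumour insertions in the 36.6th and 16.6th.

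In Ptch1, all insertions of intron 2 were on the plus strand, against the gene, and all came from tumours.
PB tumour 9, chr13:63551877-63551900: ttccacgtctTTAAgggagaccca
PB tumour 12, chr13:63555112-63555135: tgtagcctatTTAAaaaaaaaaga
PB tumour 4, chr13:63555651-63555674: ttaccatttcTTAAaggagcgctt
PB tumour 14, chr13:63556536-63556559: tcctgctttcTTAAgtaggagatg
PB tumour 20, chr13:63562853-63562876: ttgctttcttTTAAaatacacaca
SB tumour 6, chr13:63550390-63550411: gggctatgcaTAtatatgagta
The intron spans 15.4 kb with 75 of the 328 TTAA sites of Ptch1 and follows the first 117 codons. From TTAA sites, 1.37 PB tail insertions were expected in the whole gene, so their absence from this intron carries little information. The reads of the PB insertions were 2, 25, 3, 3 and 9 in this order, and the SB insertion had 23 reads.

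Reads on the kept insertions numbered from 60551 to 5721846 per PB tumour (median 136578), from 71232 to 193314 per PB tail, from 56871 to 162837 per SB tumour and from 55502 to 369482 per SB tail. The insertions kept per sample ranged from 757 to 10801 in PB tumours, from 2035 to 7362 in PB tails, from 760 to 8786 in SB tumours and from 2537 to 7148 in SB tails. Because samples differed in their number of insertions, a gene is described by its insertions per 1000 insertions of the same sample. The sources used here do not mention molecular identifiers, so several reads may stem from one molecule. In bulk DNA, more cells with an insertion and stronger amplification of its junction cannot be told apart.

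PB tails carried Aopep insertions in 12 of 12 mice, 43 in all. The number per tail was 2 at the lowest, 3 at the median and 9 at the highest (PB tail 4). PB tumours carried 31, in 19 of 30 mice, with 0 at the lowest, 1 at the median and 4 at the highest (PB tumour 4). Every tail therefore had at least 2 Aopep insertions, whereas 11 of 30 tumours had none.

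Per 1000 insertions, the tails had 0.965 ± 0.373 in Aopep (SD, n = 12), from 0.511 to 1.47 with a median of 0.943. The tumours had 0.206 ± 0.239 (SD, n = 30), from 0 to 1.11 with a median of 0.155. The mean of the tails was 4.69 times that of the tumours. The groups overlapped, but narrowly: 2 of 30 tumours were at or above the lowest tail, and 6 of 12 tails were above the highest tumour. In the edgeR fit over all genes, Aopep had a log2 fold change of -2.05 for tumours over tails, which is given as a description.

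Relative to the share of TTAA sites of chromosome 13 that lie in Aopep, the 43 insertions of the tails compared with 7.52 expected, a ratio of 5.72, and the 31 of the tumours with 22.8 expected, a ratio of 1.36. Hits in all 12 PB tails were found for 16 of 22558 genes with a TTAA site (0.0709%), and 9 genes had at least 43 insertions in the tails. In the tumours, 451 of the same 22558 genes were hit in at least 19 mice, and 527 had at least 31 insertions. The cutoffs in each group are the values of Aopep itself. By these counts Aopep was among the genes that PB hit in most tails, and less far up the list in the tumours. The counts were not scaled to gene size, and Aopep is long, with 1796 TTAA sites over 361 kb. Its place among genes of similar size was not computed.

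SB mice had 9 Aopep insertions in all. SB tumours had 5, in 5 of 11 mice, and SB tails 4, in 3 of 11 mice. Per 1000 insertions this was 0.114 ± 0.146 in tumours (SD, n = 11), with a median of 0 and a highest value of 0.399, and 0.0668 ± 0.115 in tails (SD, n = 11), with a median of 0 and a highest value of 0.280. The ratios to the numbers expected from TA sites were 0.744 and 0.588, and the ranges of the SB groups overlapped. Of 23859 genes with a TA site, 3.27% were hit in at least 5 SB tumours and 9.62% in at least 3 SB tails. With under 10 insertions over both groups, none of the 3 genes was fitted for SB.

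**Figure D1:**
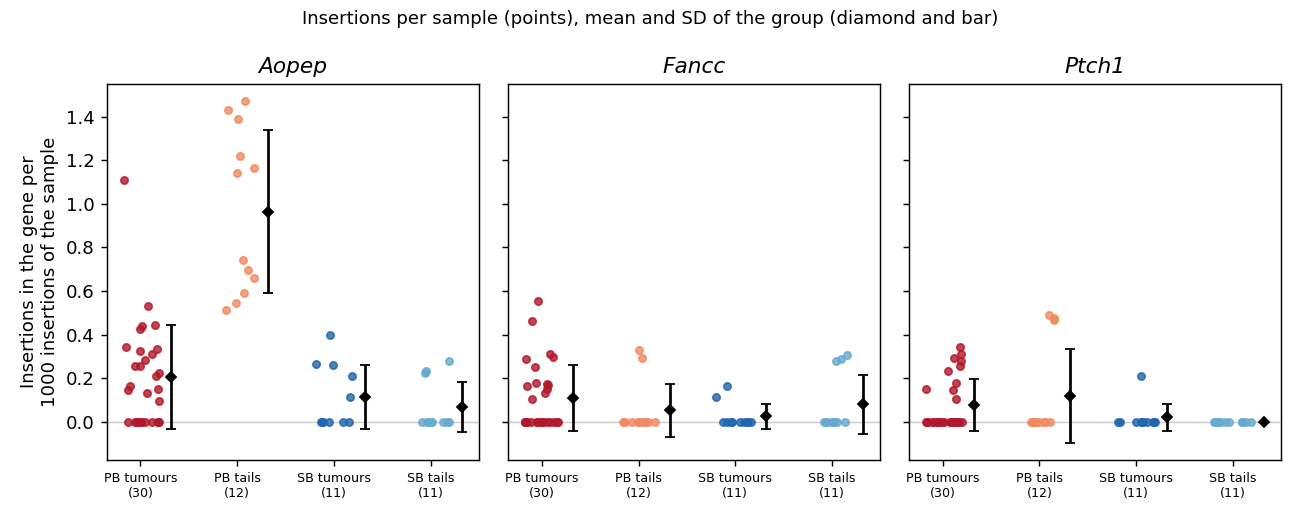
Insertions in Aopep, Fancc and Ptch1 per 1000 insertions of each sample (vertical axis), one point per mouse in each of the 4 groups, with the group mean and SD as diamond and bar. The 12 PB tails lie between 0.511 and 1.47 in Aopep, above all but 2 of the 30 PB tumours, and most samples are at 0 in Fancc and Ptch1.

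Fancc, the neighbour that overlaps the end of Aopep, showed the opposite order in PB. PB tumours had 19 insertions in 13 of 30 mice, with 0 at the lowest, 0 at the median and 4 at the highest (PB tumour 7). PB tails had 2, in tails 3 and 6. Per 1000 insertions the means were 0.108 ± 0.152 (SD, n = 30) and 0.0518 ± 0.121 (SD, n = 12), and the tumour mean was 2.08 times the tail mean. The spread of both groups was larger than this difference, and both had a median of 0. The log2 fold change of tumours over tails was 1.12, from few insertions and not tested. The tumours had 1.38 times the number expected from TTAA sites and the tails 0.438 times.

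In SB, Fancc had 2 insertions in 2 tumours and 4 in 3 tails. The means per 1000 insertions were 0.0253 ± 0.0575 in tumours and 0.0794 ± 0.136 in tails (SD, n = 11 each), with medians of 0. One SB tail (SB tail 9) held 2 of the 4, together with an Aopep insertion outside the overlap.

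Ptch1, the smallest of the 3 genes, had 12 insertions in 10 of 30 PB tumours and 4 in 3 of 12 PB tails (1 in tail 5, 1 in tail 11 and 2 in tail 12). PB tumours 7 and 24 had 2 insertions each. Per 1000 insertions the means were 0.0762 ± 0.119 (SD, n = 30) and 0.119 ± 0.216 (SD, n = 12), with medians of 0. Both groups were close in their ratio to the number expected from TTAA sites, 2.89 in tumours and 2.91 in tails. The log2 fold change was -0.10, from few insertions and not tested. In SB, Ptch1 had 1 insertion in 1 tumour and 0 of 50789 insertions in the tails, where 1.10 were expected.

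Samples were named in 2 forms in the titles, joined and separated, which may mark a batch. The order of the PB groups was the same within each form. Aopep means were 1.09 in 5 tails and 0.217 in 22 tumours with joined names, and 0.875 in 7 tails and 0.173 in 8 tumours with separated names. Over the whole region, samples with joined and separated names did not differ beyond their spread in PB tumours (0.466 and 0.410 per 1000), PB tails (1.35 and 1.22) or SB tails (0.141 and 0.177), with adjusted p = 0.773 in each (two-sided permutation tests over all splits, exact, Benjamini-Hochberg over 3 groups). SB tumours all had joined names.

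**Figure D2:**
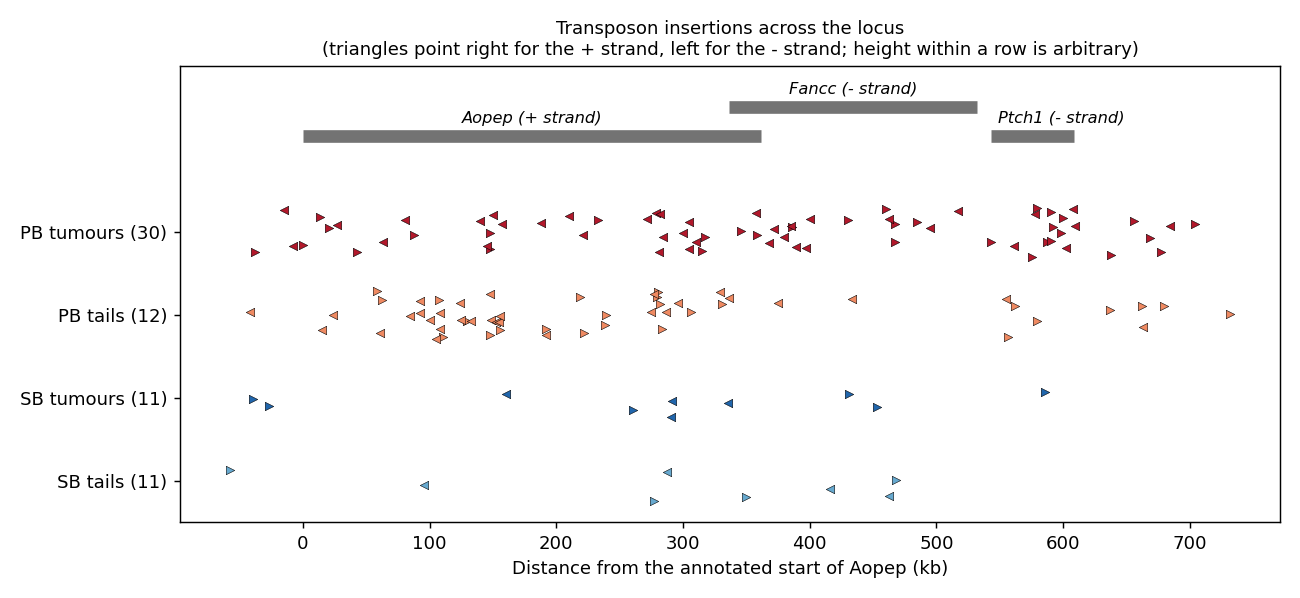
Position of the 144 insertions in kb from the annotated start of Aopep (horizontal axis), in a row for each group, with triangles pointing right for the plus strand and left for the minus strand and grey bars for the genes. The 43 insertions of PB tails within Aopep stop before the part shared with Fancc, and the 71 insertions of PB tumours are spread over the whole region.

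Along the region, the tail insertions were concentrated in Aopep. The 64.9 kb before Aopep held 1 PB tail insertion (0.663 times the number expected from TTAA sites), the part of Aopep outside the overlap held 43 (5.97 times), the 24.8 kb of overlap with Fancc held 0 where 0.322 were expected, and the rest of Fancc held 2 (0.472 times). Ptch1 held 4 and the 127 kb after Ptch1 held 5 (1.90 times). The tumours had a flatter profile, at 0.877 times expected before Aopep, 1.28 in Aopep outside the overlap, 3.07 in the overlap from 3 insertions, 1.25 in the rest of Fancc, 2.89 in Ptch1 and 0.877 after it. The ratio in tails was lower in the segments on both sides of Aopep than in Aopep, but few insertions were expected in those segments. The numbers expected were 1.51 before Aopep, 0.322 in the overlap and 4.24 in the rest of Fancc, so the ratios there are imprecise. The highest ratio of the tumours outside the small overlap was that of Ptch1.

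**Figure D3:**
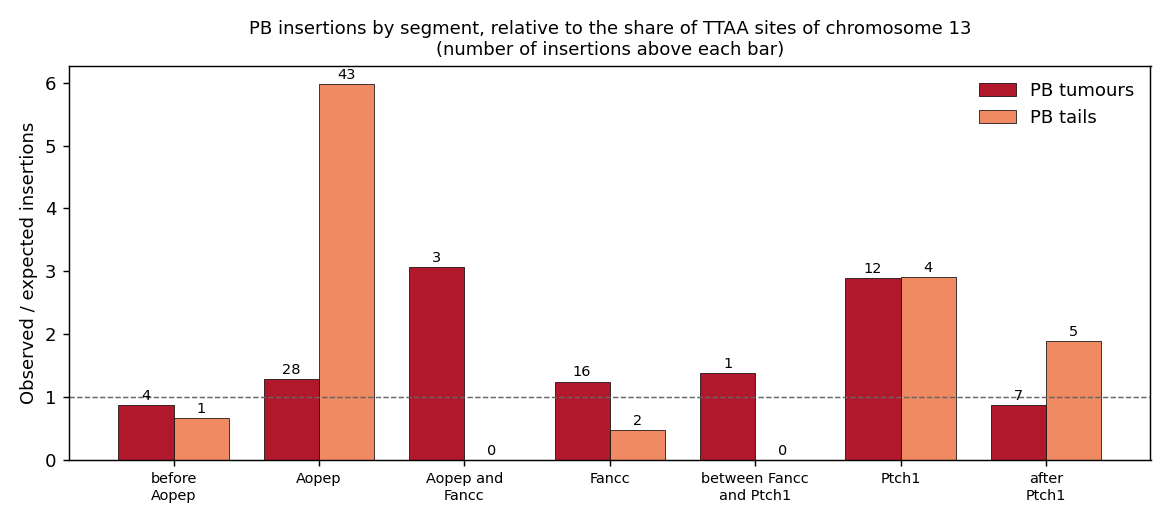
Observed over expected PB insertions (vertical axis, bars from 0) in 7 consecutive segments of the region, expected from the segment's share of the TTAA sites of chromosome 13, with the number of insertions above each bar. The tail bar of Aopep reaches 5.97 and the other tail bars stay at or below 2.91.

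Within Aopep, the midpoint of the gene had 54.4% of the TTAA sites before it. Of the tail insertions, 25 of 43 (58.1%) lay before the midpoint, and of the tumour insertions 13 of 31 (41.9%). The median distance from the start of the gene was 153 kb in tails and 221 kb in tumours. Most insertions lay in introns, as did most of the gene: 75 of the 83 over all groups were in introns of the Select transcript, 4 in its exons and 4 beyond its end.

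The intron with the most tail insertions was intron 5, the longest (88.3 kb, 489 TTAA sites), which follows the first 456 codons. It held 16 insertions in 8 of 12 PB tails, 7 in 6 of 30 PB tumours and 1 in an SB tumour. Intron 13 (41.8 kb, 244 TTAA sites), which lies towards the end of the coding sequence, held 8 in 5 tails, 9 in 8 PB tumours, 2 in SB tumours and 2 in SB tails. The 2 introns together held 24 of the 43 tail insertions and 16 of the 31 tumour insertions of PB. Intron 1 held 4 insertions in PB tumours and 2 in PB tails, ahead of the start codon.

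In exons, PB tails 1 and 7 shared the TTAA of exon 6 shown above, in coding sequence. The other exonic insertions were both in exon 16, the last one of the Select transcript, in its untranslated part near the microRNA genes. They are shown with 1 mature microRNA from each of the 3 microRNA genes on the plus strand, as given by RefSeq on GRCm38.p6, with the seed (bases 2 to 8) in capitals.
SB tumour 6, minus strand, 176 bp before the Mir23b hairpin, chr13:63300298-63300319: attggtctcaTAgctgataagt
PB tail 7, minus strand, 138 bp after the Mir27b hairpin and 286 bp before that of Mir24-1, chr13:63300912-63300935: ctgaccacccTTAAgtgtgtctac
miR-23b-5p, chr13:63300492-63300512, plus strand: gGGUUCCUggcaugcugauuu
miR-27b-3p, chr13:63300760-63300780, plus strand: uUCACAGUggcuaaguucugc
miR-24-3p, chr13:63301251-63301272, plus strand: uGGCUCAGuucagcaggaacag
The 3 seeds differed. The SB insertion had 38 reads and the PB insertion 32. No insertion fell within the hairpins of Mir23b, Mir27b, Mir24-1 or Mir3074-1, which lies on the minus strand over Mir24-1.

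The region held 12 other annotated genes, among them these microRNAs. Gm46422, a long non-coding RNA inside intron 5 of Aopep on the minus strand (63087795 to 63094751), was hit in PB tails 2, 6 and 8 and in no other sample. Gm16907, on the minus strand near the end of Aopep (63289154 to 63297147), was hit in PB tails 5 and 10. Past Ptch1, LOC102632415 held 2 insertions, and Gm30709 and 1700024I08Rik held 1 each. The remaining genes of the region, the lncRNAs Gm40981 and Gm30409 and the pseudogene Tubb2a-ps1, held none.

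Fancc insertions were in introns in 20 of 27 cases, 0 were in its exons and 7 lay outside the Select transcript. Introns 1, 4 and 6 held 8 of the 19 insertions of PB tumours, and both tail insertions were in introns 3 and 8. In Ptch1, 14 of 17 were intronic and 1 was exonic, a plus strand insertion of 2 reads in exon 10 of PB tumour 8. The 4 tail insertions of Ptch1 were in introns 5, 16, 18 and 19, so none lay in the first 4 introns, whereas 6 of the 12 tumour insertions were in introns 1 and 2. With so few tail insertions, this contrast carries little information and was not tested.

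Near the annotated starts, the insertions came mostly from PB tumours. PB tumour 29 carried one 371 bp before the start of Aopep, on the plus strand as the gene, with 40 reads.
PB tumour 29, chr13:62964512-62964535: atgatcttatTTAAggcactgtgc
At the Select start of Ptch1, PB tumour 24 had a plus strand insertion 992 bp inside the gene with 10 reads, and PB tumour 7 a minus strand insertion 1264 bp before it with 2 reads. At the start of a longer variant at 63573460, PB tumour 27 had an insertion 1062 bp inside and PB tumour 11 one 897 bp before it, both on the minus strand, with 10 and 2 reads. No tail insertion was found within 1500 bp of a Ptch1 start, though PB tails had only 4 in the whole gene.

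To see where insertions of different mice gathered, the region was divided into 80 windows of 10 kb. At least 3 PB tails were hit in 4 windows of the region, compared with 0.545% of 233794 windows of the genome, and at least 3 PB tumours in 7 windows (8.75%), compared with 5.56% of all windows. No window of the region reached 3 samples in SB tumours or SB tails, where 0.171% and 0.23% of all windows did. The window from 63070001 to 63080000, in intron 5 of Aopep, was hit in 5 of 12 tails and in 0 of 30 tumours, and 0.0364% of all windows were hit in at least 5 PB tails. In the same intron, the window from 63110001 to 63120000 was hit in 3 tails and 4 tumours, and that from 63240001 to 63250000, in intron 13, also in 3 tails and 4 tumours. In Ptch1, the window from 63550001 to 63560000 was hit in 4 PB tumours and 0 PB tails, as part of the intron 2 insertions. Windows hit in at least 4 PB tumours made up 2.54% of the genome, so this last count is not rare. With a minimum of 10 reads, 2 windows reached 3 PB tails and 0 reached 3 PB tumours.

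The strand of an insertion decides which way the transposon faces the gene, and it was not part of the choice of the region. The sources used here do not describe which signals the ITP transposons carry. For each sample the share of insertions on the strand of the gene was set against the share over all other genes of the same sample. In PB tumours, 11 of 31 Aopep insertions were on the strand of the gene, and the mean difference from other genes was -15.5 percentage points (two-sided sign-flip permutation test over 19 tumours, p = 0.125, adjusted p = 0.714). In PB tails 18 of 43 were, with a mean difference of -2.90 points (permutation test over 12 tails, p = 0.777, adjusted p = 0.777).

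Fancc insertions in PB tumours were on the strand of the gene in 11 of 19 cases, with a mean difference of 9.38 points (permutation test over 13 tumours, p = 0.347, adjusted p = 0.714). Ptch1 insertions in PB tumours were on the strand of the gene in 4 of 12 cases, with a mean difference of -23.3 points (permutation test over 10 tumours, p = 0.180, adjusted p = 0.714). With at least 10 reads, the differences of Ptch1 and Aopep in PB tumours turned to 1.28 points (n = 4) and 1.03 points (n = 11). None of the 10 combinations of gene and group that could be tested passed after adjustment over them. With the 2 to 5 samples in 6 of them the smallest p that exact tests allow is between 0.0625 and 0.5, so these could not pass. The SD between mice was 42.2 points in the PB tumours with Ptch1 insertions and 42.1 in those with Aopep insertions.

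By intron, the strands were uneven in ways that were seen only after the values were known and were not tested. Intron 13 of Aopep had 1 plus strand and 8 minus strand insertions in PB tumours, and 5 plus and 3 minus in PB tails. Intron 5 had 2 plus and 5 minus in tumours, and 5 plus and 11 minus in tails. In intron 2 of Ptch1 the 5 PB tumour insertions and the SB tumour insertion were all on the plus strand, as was the insertion of PB tumour 24 in intron 1, while of the other 6 tumour insertions of PB in the gene 2 were on the plus strand and 4 on the minus strand.

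**Figure D4:**
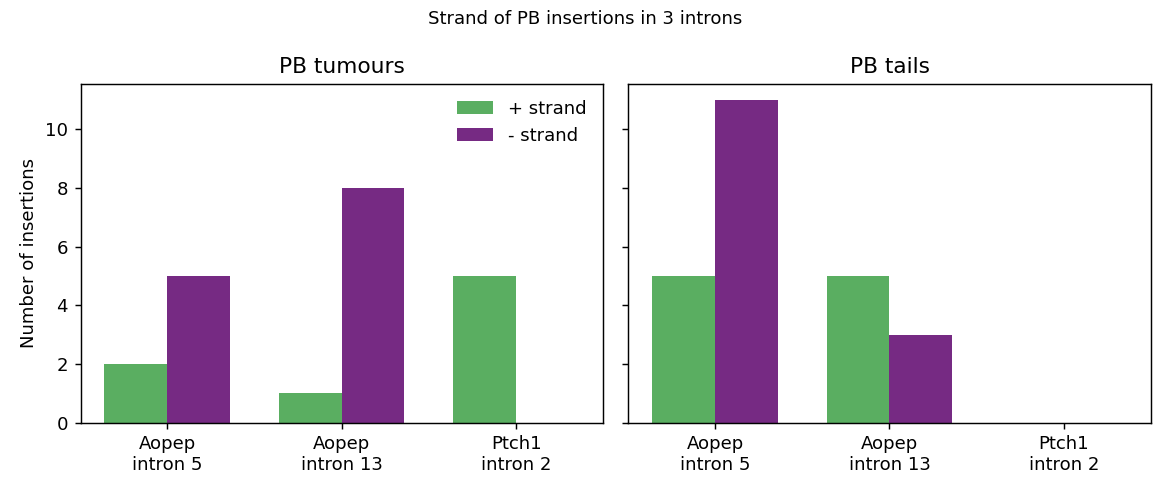
Number of PB insertions (vertical axis) on the plus strand (green) and minus strand (purple) in introns 5 and 13 of Aopep and intron 2 of Ptch1, for 30 tumours (left) and 12 tails (right). Tumour insertions are 1 plus and 8 minus in Aopep intron 13 and 5 plus and 0 minus in Ptch1 intron 2, and tails have none in the latter.

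The reads of an insertion show how much of the amplified DNA carried it. In PB tumours the insertions of the region had 2 to 363 reads with a median of 5, compared with a median of 6 over all PB tumour insertions, and in PB tails 2 to 127 with a median of 24, compared with 21. Most tumour insertions were thus thinly covered, and 47 of 71 had under 10 reads, compared with 13 of 55 in the tails. The share with at least 10 reads was 33.8% in PB tumours and 76.4% in PB tails. Over all insertions of these groups it was 36.2% and 71.4%, so this difference between tumours and tails was not particular to the region. For Aopep the medians were 7 in tumours and 24 in tails, for Fancc 4 and 43, and for Ptch1 4 and 50.5, the tail values of Fancc and Ptch1 resting on 2 and 4 insertions.

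Ranked within each sample, insertions of the region lay near the middle on average. The mean percentile per sample was 46.5 ± 19.3 in PB tumours (SD, n = 26 mice with an insertion in the region, above 50 in 11 of them) and 49.9 ± 16.7 in PB tails (SD, n = 12, above 50 in 7). It was 50.7 ± 27.2 in SB tumours and 51.3 ± 25.1 in SB tails (SD, n = 6 each). The exact sign-flip test used for SB cannot give a p below 0.0313 with 6 mice, so SB could hardly pass after adjustment. Against 50, the sign-flip permutation tests gave p = 0.366, p = 0.982, p = 1 and p = 0.938 in this order, two-sided, exact for SB, each with adjusted p = 1 over the 4 groups.

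Among the 100 most covered insertions of their sample were 2 of 71 insertions of the region in PB tumours (2.82%) and 1 of 55 in PB tails (1.82%), compared with 1.93% and 2.59% of all insertions of these groups. The most covered one was that of PB tumour 12 at 63621215, past Ptch1 on the plus strand, with 363 reads or 0.367% of the reads of the tumour, at rank 20. Within the genes of the region, the highest ranked in a tumour was a Fancc insertion in intron 4 of PB tumour 4 with 50 reads, at rank 80, and the highest ranked in a tail an Aopep insertion in intron 13 of PB tail 12 with 127 reads, at rank 39. No Aopep or Ptch1 insertion of a PB tumour was among the 100 most covered of its sample.

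**Figure D5:**
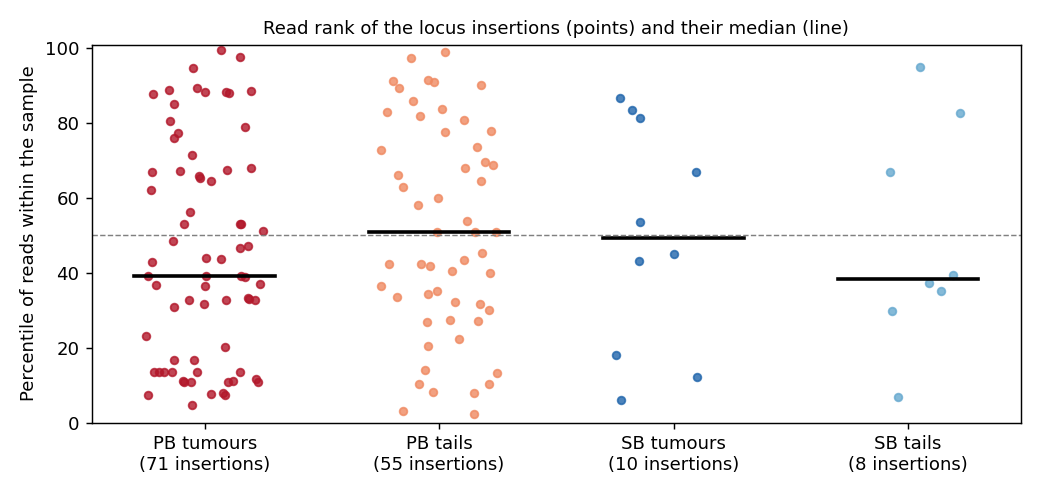
Percentile of the reads of each insertion of the region among all insertions of its sample (vertical axis, 0 to 100), one point per insertion in each group, with the median of the insertions as a black line. Points of the 71 PB tumour and 55 PB tail insertions cover the whole range, and the means per mouse were 46.5 and 49.9.

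With only insertions of at least 10 reads, 14 Aopep insertions in 11 of 30 PB tumours and 33 in 12 of 12 PB tails were left. The means were 0.214 ± 0.337 (SD, n = 30) and 1.05 ± 0.538 (SD, n = 12) per 1000 insertions of at least 10 reads. Fancc kept 5 insertions in 5 tumours and 2 in 2 tails, and Ptch1 4 in 4 tumours and 4 in 3 tails. The presence of Aopep insertions in every PB tail was therefore found without the thinly covered insertions too.

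The pathways of the 3 genes were followed through lists of other genes, compared between tumours and tails over all genes with at least 10 insertions (edgeR quasi-likelihood test, Benjamini-Hochberg over all genes tested). In PB, 3502 genes were tested, of which 4.34% were called, 2.08% as higher in tumours and 2.26% as higher in tails. Of 17 hedgehog pathway genes other than Ptch1, 6 could be tested, with 4 at an unadjusted p below 0.05. Among these 4, Sufu alone had a positive log2 fold change (1.80). After adjustment, 0 were higher in tumours and 2 were higher in tails, Gli3 and Gli2, both transcription factors that carry out the response to hedgehog. DESeq2 called 1 of the 6, Gli3, and gave no adjusted p for 4. The median log2 fold change of the 6 was -0.99, and 0.19 over all genes tested.

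Gli3 had 20 insertions in 9 of 12 PB tails, with 0 at the lowest, 1 at the median and 7 at the highest, and 12 in 10 of 30 PB tumours, with 0, 0 and 2. Its log2 fold change of tumours over tails was -2.11 with a standard error of 0.47 (edgeR, adjusted p = 0.00127). Without PB tail 8, which held the 7, it was -1.76 (edgeR, adjusted p = 0.0277), and among joined names only -2.09 (edgeR, adjusted p = 0.168), where the call was lost.

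Gli2 had 12 insertions in 9 of 12 PB tails, with 0 at the lowest, 1 at the median and 3 at the highest, and 7 in 7 of 30 PB tumours, with at most 1. Its log2 fold change was -1.98 with a standard error of 0.54 (edgeR, adjusted p = 0.0116). Without PB tail 12, which had the most insertions in Gli2, it was -1.73 (edgeR, adjusted p = 0.0627), so that the call rested on this tail.

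Among the other tested genes of the pathway, Sufu, which binds and restrains the Gli factors, had 10 insertions in 8 tumours and 0 in tails (edgeR, adjusted p = 0.147). Hhat, which attaches palmitate to hedgehog ligands, had 20 in 12 tumours and 11 in 7 tails (edgeR, adjusted p = 0.484). Disp1, which releases the ligands, had 13 in 11 tumours and 7 in 5 tails (edgeR, adjusted p = 0.566), and Cdon, a coreceptor of Ptch1, had 7 in 7 tumours and 7 in 5 tails (edgeR, adjusted p = 0.193). The ligand genes Shh and Ihh and the transducer gene Smo had no PB insertion, and Dhh had 1 in a tumour.

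Of 18 Fanconi anaemia pathway genes other than Fancc, 2 could be tested in PB and 0 were called, with 1 of them at an unadjusted p below 0.05. Fancl, the ubiquitin ligase of the core complex, had 19 insertions in 12 tumours and 1 in 1 tail (log2 fold change 1.65, standard error 0.72, edgeR, adjusted p = 0.161). Brip1, a helicase, had 21 in 15 tumours and 5 in 4 tails (edgeR, adjusted p = 0.844). DESeq2 gave no adjusted p for either. The whole list had 80 insertions among 156900 of PB tumours and 15 among 48125 of PB tails.

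Of 10 other aminopeptidases of the M1 family, 3 could be tested in PB and 0 were called, with 2 at an unadjusted p below 0.05. Lnpep had 68 insertions in 22 of 30 tumours and 7 in 5 of 12 tails (log2 fold change 1.41, standard error 0.51, edgeR, adjusted p = 0.0823). Npepps had 10 in 9 tumours and 0 in tails (edgeR, adjusted p = 0.147), and Trhde 11 in 10 tumours and 2 in 2 tails (edgeR, adjusted p = 0.752). Under another scaling (TMM factors) Lnpep was called higher in tumours (edgeR, adjusted p = 0.0383). With at least 10 reads its log2 fold change was lower, at 0.82 (edgeR, adjusted p = 0.419). Without the minimum of 10 insertions per gene it was 1.41 (edgeR, adjusted p = 0.326). Among joined names only it was higher, at 2.65 (edgeR, adjusted p = 0.170). DESeq2 called 0 of the 3 and gave no adjusted p for 2. All 3 had a positive log2 fold change in PB.

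In SB, 1155 genes were tested, of which 0.866% were called, 0.693% as higher in tumours and 0.173% as higher in tails. Of the 3 lists, 1 hedgehog gene (Gli3), 1 Fanconi gene (Brip1) and 3 M1 genes (Lnpep, Npepps and Trhde) could be tested. The count of genes called was 0 in each list by edgeR and by DESeq2, with 0 at an unadjusted p below 0.05. Gli3 had 4 insertions in 4 of 11 SB tumours and 10 in 4 of 11 SB tails (log2 fold change -0.89, standard error 0.71, edgeR, adjusted p = 0.731). The M1 genes had log2 fold changes of -0.51 (Lnpep), -0.64 (Npepps) and -0.77 (Trhde), with standard errors from 0.64 to 0.72.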

How the data were processed

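Insertions of 64 samples were taken from the deposited table, in which the authors give, per the file headers, a position, a strand and a raw count of reads for each of 385883 lines, with no line under 2 reads. Positions are on mm10. The aligner and the insertion caller are not given in the sources used here. A further per-sample column (1 column) was not used.

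Each position was assigned to the TTAA (PB samples) or TA (SB samples) that contained it or lay closest, at most 5 bp away, and lines of a sample at the same motif were merged into 1 insertion. The sex chromosomes were left out, as was chromosome 14, taken as the donor from its density of insertions since the sources used here do not name it; this enters the totals per 1000 insertions. In the region, 144 lines gave 144 insertions, with 0 moved and 0 merged. Genes were RefSeq genes of GRCm38.p6 with a curated transcript, from start to end. Expected insertions are the insertions of chromosome 13 times the share of its motifs. The region, its genes and the lists were chosen with earlier results of these data known. Named were the 3 genes, the other genes of the region, list members called, and up to 4 others with the most insertions. A listed gene is not reported here. Other listed genes and all windows, introns and sites were named after their values had been seen.

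Tumours and tails were compared with edgeR 4.0.16 in R 4.3.3 on insertions per gene, each sample's total number of insertions serving as its library size, for genes with at least 10 insertions. DESeq2 1.42.0 was an alternative. The standard errors printed with log2 fold changes were derived from the F statistic of the edgeR test. They are the size of the log2 fold change divided by the square root of F. Permutation tests used 100000 resamples, or all of them where exact. Python 3.11.15, numpy 2.4.6, pandas 2.3.3, scipy 1.17.1 and matplotlib 3.10.9 were used. The fit was tested on simulated Poisson counts, which hold no further spread between mice. Of 200 genes set 4-fold apart, 50 were recovered among 3549 for PB, with 1 false call, and 77 among 1211 for SB, with 6. Many changes of this size are thus missed at these numbers, while the false calls need not match those in the real data. Each sample was of another mouse, and p-values measure the spread between mice.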

Additional observations from a re-analysis of the deposited data

How the results depend on the processing

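Of 94 alternative values, 73 were counted as kept. These kept the direction and the side of the threshold, moved by less than the spread or, for counts, changed only by a limited factor. The genes called between PB tumours and tails were 152. Counted as kept were 205 with TMM factors and 119 with at least 10 reads. Not so counted were 82 with DESeq2, 74 without the filter on few insertions and 29 with joined names only. In SB they were 10, and 2 with DESeq2. Per 1000 insertions of chromosome 13 rather than of all chromosomes, the region held 8.20 in PB tumours, 21.1 in PB tails, 3.16 in SB tumours and 2.93 in SB tails, a change that follows from the smaller total. The alternatives that leave out 1 tail were chosen after seeing the data. Without PB tail 4, the mean of PB tails was 1.28 per 1000, compared with 1.27. With at least 10 reads, the windows of 10 kb hit in 3 samples fell from 7 to 0 in PB tumours and from 4 to 2 in PB tails.

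The differences in strand of PB tumours changed sign with at least 10 reads, to 1.03 points for Aopep and 1.28 for Ptch1. The read rank relative to 50 changed sign for PB tails among insertions of chromosome 13 (0.57) and for SB tumours there (-0.87) and with at least 10 reads (-0.22), and for SB tails with at least 10 reads (-3.27). The difference between name forms changed sign with at least 10 reads in PB tumours (-0.034) and PB tails (-0.085). None of these passed a threshold before or after, and the cause was not tested. Gli3 lost its call among joined names and Gli2 without PB tail 12, while Gli2 had too few insertions to be fitted among joined names and had no adjusted p from DESeq2. Lnpep was called with TMM factors only. No paired analysis was possible because every sample came from another mouse and the replicate numbers were given in accession order. The few insertions per gene and sample limit these comparisons, mainly for SB, Fancc and Ptch1.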
